A study of Mus musculus with 147 samples.

Results

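*Ddx4*, *Dazl* and *Boll*, 3 of the 31053 genes in the UMI table, were chosen by name as the *Vasa* helicase gene and the autosomal DAZ family of the mouse. Their transcripts were followed in wild-type cells of mice carrying the Prdm1-mVenus (BV) and Dppa3-ECFP (SC) reporter transgenes, bred from C57BL/6 females and BVSC males, over 28 time-points from embryonic day (E) 6.5 through postnatal day (PND) 35 to adult testis. E6.5 and E7.5 cells were picked without a reporter gate (EPIrandom or FACSrandom), E8.5 to E18.5 cells were sorted into a reporter-positive gate (BVSC, and for some E11.5 cells BV, with the SC signal alone used from E14.5), E11.5 to E18.5 gonads also gave a Negative gate, and cells after birth were picked by germ cell morphology without a reporter gate. Part of the PND14 and PND30 cells were sorted by DNA content (1N, 2N, 4N), and E13.5 to E16.5 gonads were cut into proximal, central and distal parts. A second line, deficient for *Helq*, was not used here. Of 11896 wild-type cells, 11598 had more than 2000 genes and between 10000 and 1000000 UMIs, and they fell into 61 pools, each the cells of 1 time-point and 1 biological replicate. A level is given in CPM, the UMIs of the gene per 1000000 UMIs of all genes in the summed cells of a pool, and each sum held at least 10 cells.

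DDX4 is a DEAD-box RNA helicase of the germ granule, needed in the male for the piRNA pathway and for passage through meiotic prophase. DAZL and BOLL are RNA-binding proteins with an RNA recognition motif and the DAZ repeat that names the family. DAZL binds 3′ ends of germ cell mRNAs and is known to be needed for the licensing of germ cells once they have reached the gonad, while BOLL, the ancestral member, is needed late, for spermatid development. The remaining family member of primates, *DAZ*, lies on the Y chromosome and has no mouse counterpart.

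The 87 sums per time-point, replicate, gate and DNA content class held 2457656 to 187788707 UMIs. The gates matched their labels in the main: over the 16 pools with both gates, 28 germ cell markers that do not include the 3 genes summed to 4370 to 10100 CPM in the positive gate and 166 to 1240 CPM in the Negative gate, and the Sertoli list (11 genes) to 21.9 to 1620 and 426 to 6030 CPM. The germ list includes *Dppa3*, whose reporter was used to sort the positive gate, so its part of this check is in part set by the sort. Some pools stood apart from their labels. Of the positive cells, 35 of 72 in E17.5 replicate 1, 29 of 71 in E18.5 replicate 2, 0 of 48 in E8.5 replicate 1 and 16 of 48 in E8.5 replicate 3 were in the germ cell marker range. PND2 replicate 1 held 16 cells of that range among 110, and adult replicate 1 held mainly early meiotic and spermatogonial cells where adult replicate 2 held late spermatocytes and spermatids. The germ cell marker range means that germ markers made up 0.8 or more of the UMIs of the germ and somatic lists together, and 5 of 572 Negative cells were in it. All 96 cell barcodes recurred, in 130 to 142 of the 147 libraries. For the 3 genes, values without the pools that stand apart are given beside many of the results that rest on them. Counts for the list of partner and target genes, given last, include these pools.

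The 3 genes lie on different autosomes. In mm10, *Ddx4* (ENSMUSG00000021758) occupies chr13:112598333-112652475, *Dazl* (ENSMUSG00000010592) chr17:50279395-50293636 and *Boll* (ENSMUSG00000025977) chr1:55248658-55363469, all on the minus strand (GENCODE annotation). Their RefSeq promoter windows on GRCm38.p6, each 250 bases before to 50 bases after a start, are printed because *Ddx4* and *Dazl* rose in the same time window. *Boll* did not pass the main test there, but did under some of the alternatives given below. Its change was not tested against those of the other genes. RefSeq gives 2 starts for *Boll*, which tags from the 3′ end cannot tell apart. Capitals mark matches, on either strand, of CACGTG, the E-box read by MAX and MGA, and of TCCCGC, a hexamer read by E2F factors.
*Ddx4*, chr13:112652261-112652560, minus strand: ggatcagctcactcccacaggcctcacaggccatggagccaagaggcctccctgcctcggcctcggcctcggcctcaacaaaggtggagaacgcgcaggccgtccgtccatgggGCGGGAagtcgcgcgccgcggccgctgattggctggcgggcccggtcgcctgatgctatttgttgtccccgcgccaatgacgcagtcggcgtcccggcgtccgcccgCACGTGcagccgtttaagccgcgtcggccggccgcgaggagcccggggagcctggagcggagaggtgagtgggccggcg
*Dazl*, chr17:50293571-50293870, minus strand: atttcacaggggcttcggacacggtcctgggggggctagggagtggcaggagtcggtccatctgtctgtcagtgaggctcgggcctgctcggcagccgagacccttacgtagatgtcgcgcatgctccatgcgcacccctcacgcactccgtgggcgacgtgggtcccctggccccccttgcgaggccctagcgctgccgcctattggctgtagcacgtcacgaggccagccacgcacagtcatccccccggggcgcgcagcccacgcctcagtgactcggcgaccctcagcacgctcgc
*Boll*, upstream start, chr1:55363704-55364003, minus strand: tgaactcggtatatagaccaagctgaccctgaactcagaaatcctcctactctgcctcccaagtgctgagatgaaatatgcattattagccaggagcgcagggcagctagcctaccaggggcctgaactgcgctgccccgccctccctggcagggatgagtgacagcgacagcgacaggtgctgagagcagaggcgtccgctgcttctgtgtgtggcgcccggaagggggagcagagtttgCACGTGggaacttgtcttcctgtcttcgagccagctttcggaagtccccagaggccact
*Boll*, downstream start, chr1:55362679-55362978, minus strand: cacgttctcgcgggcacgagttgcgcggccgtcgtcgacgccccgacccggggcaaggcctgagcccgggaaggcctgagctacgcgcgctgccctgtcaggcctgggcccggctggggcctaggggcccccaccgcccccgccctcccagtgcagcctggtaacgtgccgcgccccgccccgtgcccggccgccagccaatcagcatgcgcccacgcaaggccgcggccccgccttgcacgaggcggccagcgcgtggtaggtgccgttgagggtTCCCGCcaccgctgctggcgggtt
The *Ddx4* window held 38 CpG dinucleotides, the *Dazl* window 28, and the *Boll* windows 13 and 39, beside a median of 7 over all 32851 windows. As many CpGs or more were found in 4.95% of all windows for *Ddx4*, 14.2% for *Dazl*, and 37.9% and 4.45% for *Boll*. The *Ddx4* window held 1 match of each hexamer, CACGTG from 29 bases and TCCCGC, on the opposite strand, from 136 bases before the start, and no match overlapped another. The upstream *Boll* window held 1 CACGTG from 9 bases before its start and the downstream window 1 TCCCGC from 26 bases after it, while neither hexamer was in the *Dazl* window. Over all windows, 7.15% held CACGTG, 1.99% held both hexamers, and 6562 windows held TCCCGC. These are matches of letters, with no measure of binding.

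Before E11.5 all 3 transcripts were low. At E10.5 *Ddx4* and *Dazl* were above their E6.5 to E7.5 range. They were for the most part above the Negative sums of E11.5, but not above the highest Negative sums of later days. The study places colonization of the gonads mainly at E10.5 and took E10.5 cells from whole embryos. The E10.5 pools may thus mix migrating cells and cells already in the gonad. At E6.5 and E7.5 the sums gave *Ddx4* levels of 5.96 to 18.6 CPM, *Dazl* levels of 0.366 to 7.85 CPM and *Boll* levels of 0.0506 to 3.36 CPM. In positive cells of E8.5 the 3 replicates gave *Ddx4* levels of 10.3, 9.13 and 15 CPM, inside the E6.5 to E7.5 range. At E9.5 its levels were 22.8 and 17.4 CPM, and at E10.5 they were 27.7, 62.6 and 66.4 CPM. All 3 E10.5 pools thus lay above both E9.5 pools and above the E6.5 to E7.5 range. *Dazl* levels stayed at 1.67 to 5.15 CPM through E8.5 and E9.5 and reached 9.93, 14.8 and 50.4 CPM in the 3 E10.5 pools, all above the E6.5 to E7.5 range, with replicate 3 far above the others. Negative cells, sorted from E11.5 on, held 8.57 and 10.1 CPM of *Ddx4* and 12.4 and 14.2 CPM of *Dazl* at E11.5, and up to 59.7 and 133 CPM on later days. Without Negative cells in the germ cell marker range the highest *Dazl* value was 86 CPM. All 3 E10.5 *Ddx4* pools and the *Dazl* pools at 14.8 and 50.4 CPM lay above the E11.5 Negative sums. Over all days, the E10.5 *Ddx4* pool at 27.7 CPM and all 3 *Dazl* pools were within the levels of Negative sums, and the *Ddx4* pools at 62.6 and 66.4 CPM just above them. Negative cells of later gonads are no matched floor for cells of whole embryos. *Boll* levels were between 0 and 5.36 CPM from E8.5 to E10.5, with no order by time-point.

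The early *Dazl* signal came from few cells. In the 2 E9.5 pools, the 10% of cells with the most *Dazl* (10 of 96 and 9 of 94 cells) held 98.7% and 100% of all *Dazl* UMIs. In the E10.5 pools the same share was 82.3%, 88.8% and 67.7%, and at E11.5 it was 21.9% and 26.2%. For *Ddx4* the top 10% of cells held 49.6% and 44.5% at E9.5, 57.5%, 39.5% and 40.9% at E10.5 and 24.3% and 23.4% at E11.5. The concentration in few cells at E9.5 was thus higher for *Dazl* than for *Ddx4* in both pools, and at E11.5 both transcripts were spread over most cells. Cells above 100 CPM of *Dazl* numbered 2 of 92, 5 of 94 and 15 of 118 at E10.5, and 93 of 111 and 48 of 72 at E11.5.

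**Figure D1:**
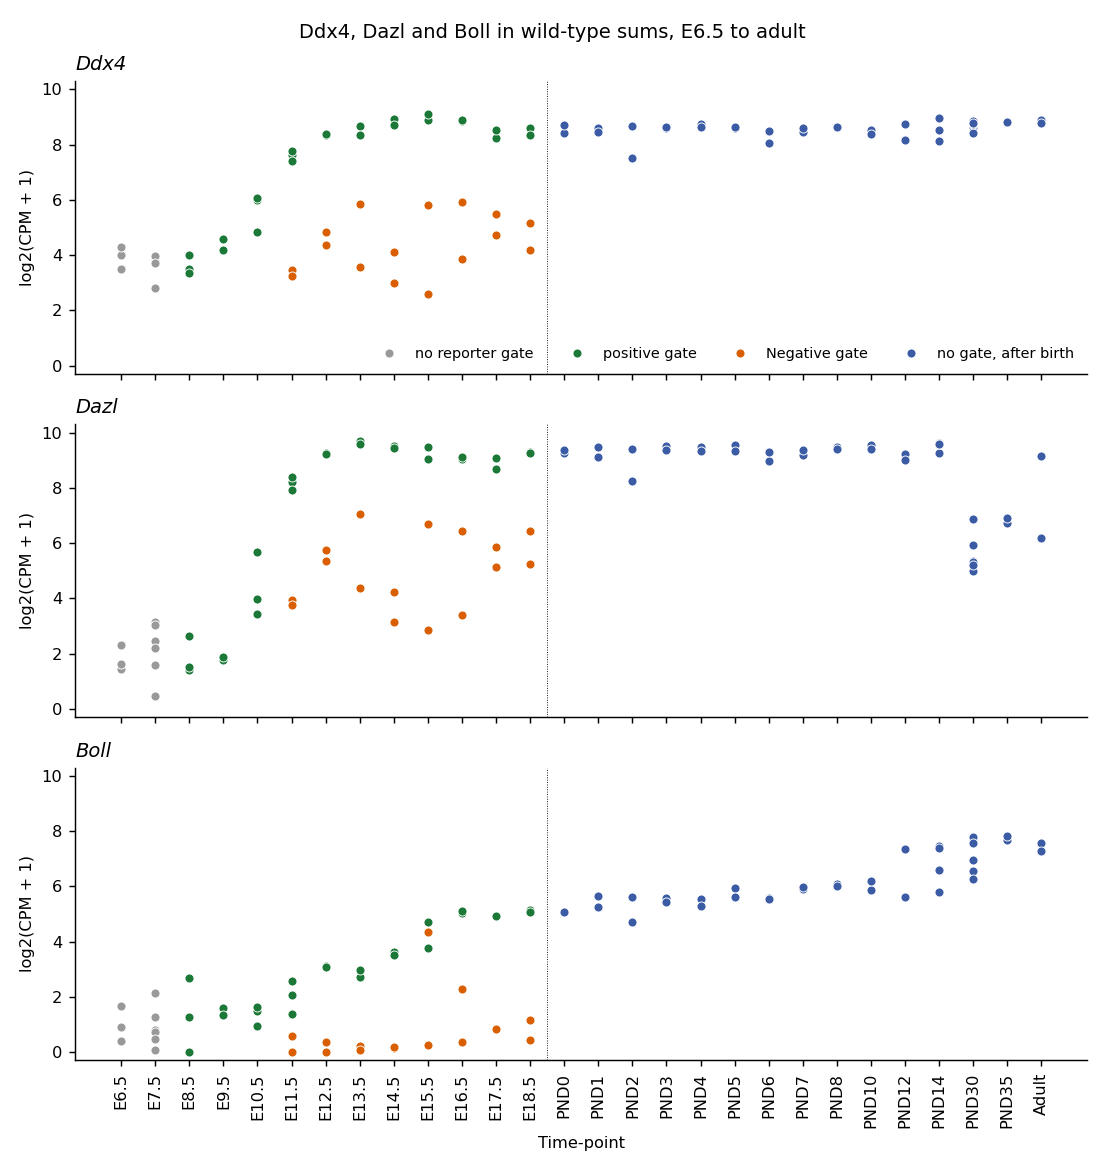
Levels of *Ddx4*, *Dazl* and *Boll* in wild-type sums by time-point, as log2(CPM + 1); each point is 1 sum of a time-point, replicate, gate and DNA content class, and the dotted line separates fetal from postnatal samples. *Ddx4* and *Dazl* climb from E9.5 to E12.5 in the positive gate, *Dazl* drops at PND30 with adult replicate 1 apart at 571 CPM, and *Boll* climbs in steps to 223 CPM at PND35.

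Between the windows E8.5-E10.5 and E11.5-E13.5, *Ddx4* and *Dazl* rose together and *Boll* did not pass the test. The positive cells of E8.5 to E10.5 gave 28.9 ± 22.8 CPM of *Ddx4* (SD, n = 8 pools) and those of E11.5 to E13.5 gave 297 ± 90.3 CPM (n = 6). In the later window the pools gave 207 and 170 CPM at E11.5, 328 and 335 CPM at E12.5 and 412 and 328 CPM at E13.5, with no overlap between the windows. Sex may differ between the windows. The study names a selection of males by PCR for *Sry* at E10.5 and E11.5, and the cell names mark only part of the E10.5 cells as male. In the quasi-likelihood test of edgeR, fitted to 21617 genes and adjusted by Benjamini-Hochberg, the log2 change of *Ddx4* was 3.36 ± 0.39 (SE, adjusted p = 4.154e-05). *Dazl* went from a mean of 11.1 CPM (lowest 1.67, median 3.93, highest 50.4, n = 8) to 559 ± 236 CPM (n = 6), the largest step of the 3 genes between any of the windows compared. Its pools gave 319 and 239 CPM at E11.5, 608 and 594 CPM at E12.5 and 825 and 769 CPM at E13.5, so the windows did not overlap and every pool of a day lay above every pool of the day before. The log2 change of *Dazl* was 5.62 ± 0.68 (SE, adjusted p = 4.154e-05, same test). *Boll* went from 1.9 ± 1.55 to 5.6 ± 2.1 CPM, a log2 change of 1.63 ± 0.55 (SE, adjusted p = 0.05221). Thus 2 of the 3 genes passed in this comparison, in which 11.6% of all genes tested did. Without the 4 pools whose cells stood apart (E8.5 replicates 1 and 3, E17.5 replicate 1 and E18.5 replicate 2), *Boll* gave a log2 change of 1.32 and passed (adjusted p = 0.0487). Without the pools numbered replicate 1, only 9 genes were called in all and *Ddx4* (log2 change 3.03) and *Dazl* (5.19) had an adjusted p of 0.06005; without those numbered replicate 2, 3 genes were called, and *Dazl* (5.36) had an adjusted p of 0.0793.

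The ratio of *Dazl* to *Ddx4* UMIs, compared here between samples and not read as a ratio of transcript numbers, changed along this course. It was 0.105 to 0.759 in the 8 pools of E8.5 to E10.5 and 1.41 to 2.34 in the 6 pools of E11.5 to E13.5. It was then 1.49 and 1.65 at E14.5, 1.13 and 1.27 at E15.5, 1.12 and 1.16 at E16.5, and 1.38 to 1.87 at E17.5 and E18.5. Among these fetal sums of all positive cells the ratio was thus highest in the E13.5 pools (2 and 2.34) and lowest in those of E15.5 and E16.5. In germ-range cells alone, E18.5 replicate 2 gave 2.02.

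All 3 genes were lower in Negative than in positive cells of the same gonads, but none was at 0 over the gate. *Ddx4* was at 377 ± 103 CPM in positive and 25.8 ± 18.9 CPM in Negative cells (SD, n = 16 pools each), with a lowest positive pool of 170 and a highest Negative pool of 59.7 CPM. *Dazl* was at 579 ± 157 and 44.7 ± 38.5 CPM, with 239 CPM as the lowest positive and 133 CPM as the highest Negative pool. *Boll* was at a mean of 17.8 CPM in positive cells (lowest 2.93, median 11.9, highest 34.7) and 1.76 ± 4.83 CPM in Negative cells (median 0.281, highest 19.5), and here the gates overlapped. The log2 differences, positive minus Negative with time-point as a term, were 3.85 ± 0.29 for *Ddx4* (SE, edgeR adjusted p = 9.682e-12), 3.74 ± 0.35 for *Dazl* (adjusted p = 3.849e-10) and 4.45 ± 0.59 for *Boll* (adjusted p = 2.12e-07). All 3 genes passed, as did 63.0% of the 15243 genes tested. The difference was not shown to change with time-point: the interaction gave adjusted p values of 0.6706 for *Ddx4*, 0.5558 for *Dazl* and 0.2314 for *Boll*. Without E17.5 replicate 1 and E18.5 replicate 2 the differences were 3.99, 3.89 and 4.43 for *Ddx4*, *Dazl* and *Boll*, and all 3 passed.

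Pool by pool, the Negative level was 0.921% to 13.9% of the positive level for *Ddx4* (median 5.54%) and 0.88% to 19.3% for *Dazl* (median 6.2%). Both genes were highest in the Negative gate of E13.5, E15.5 and E16.5 replicate 1. E15.5 replicate 1 held 3 Negative cells with a germ cell marker profile and E13.5 replicate 1 held 2. Without these 5 cells the Negative sum of E13.5 replicate 1 held 20.9 in place of 57.1 CPM of *Ddx4* and 65.2 in place of 133 CPM of *Dazl*. That of E15.5 replicate 1 held 10.1 in place of 55.9 and 21.3 in place of 102 CPM. The E16.5 replicate 1 sum, which held no such cell, stayed at 59.7 CPM of *Ddx4* and 86 CPM of *Dazl*. The *Boll* Negative level in E15.5 replicate 1 was 19.5 CPM, 77.7% of the positive level, and 1.99 CPM without the 3 cells, while the other Negative sums held 0 to 3.84 CPM from 0 to 34 UMIs. A sum with 0 *Boll* UMIs, such as that of E11.5 replicate 2 with 3966641 UMIs, allows up to 0.756 CPM (3 UMIs), and intervals and floors cover counting error only. The 28 germ cell markers together were in the Negative sums at 1.64% to 23.2% of their positive level. The *Dazl* to *Ddx4* ratio was 0.473 to 2.61 in Negative sums and 1.12 to 2.34 in positive ones. Whether carried-over RNA, single missorted cells or low expression in somatic cells gave the Negative level was not tested.

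**Figure D2:**
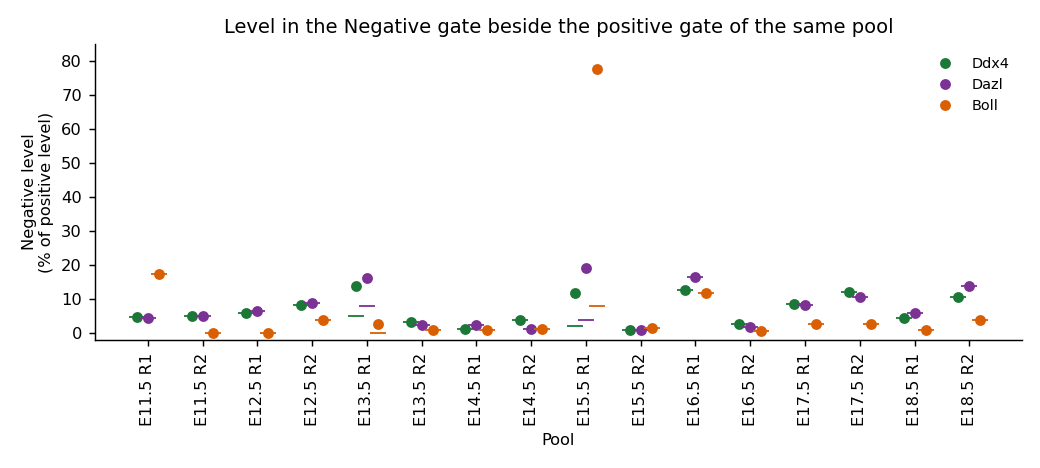
Level in the Negative gate as percent of the positive gate of the same pool (E11.5 to E18.5, 2 replicates each, R1 and R2); points use all Negative cells and dashes leave out the Negative cells with a germ cell marker profile. *Ddx4* and *Dazl* stay at or below 19.3%, and the *Boll* point of E15.5 R1 at 77.7% drops to 7.93% without 3 cells.

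From E11.5-E13.5 to E14.5-E16.5, *Boll* was the single gene of the 3 that passed the test. Its positive pools went from 5.6 ± 2.1 CPM (2.93 to 7.63) at E11.5 to E13.5 to 20.9 ± 10.8 CPM (SD, n = 6 each). The lowest pool of the later window, E14.5 replicate 2, held 337 *Boll* UMIs in 32104931, the median was 18.8 CPM, and the E16.5 pools were highest at 32.2 and 33.7 CPM. Every pool of the later window lay above every pool of the earlier one. The log2 change was 1.54 ± 0.59 (SE, edgeR adjusted p = 0.03911), where *Ddx4* gave 0.42 (95% interval -0.41 to 1.24, adjusted p = 0.416) and *Dazl* -0.11 (-1.4 to 1.18, adjusted p = 0.9007). One of the 3 genes passed, beside 42.7% of all genes, whose median log2 change was 0.49. The *Boll* call was lost with no filter on low counts (1.5, adjusted p = 0.05056), without replicate 1 (log2 change 1.34, adjusted p = 0.1668) and without replicate 2 (1.75, adjusted p = 0.2612). *Dazl* levels by day came down from 825 and 769 CPM at E13.5 to 523 and 551 CPM at E16.5, a path that the comparison of 3-day windows averages.

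At E17.5 and E18.5 no gene of the 3 passed against E14.5 to E16.5, while 13.47% of all genes did. *Ddx4* was at 298, 364, 392 and 324 CPM in the 4 pools, below each of the 6 pools of E14.5 to E16.5 (417 to 553 CPM), with a log2 change of -0.88 (95% interval -1.83 to 0.06, adjusted p = 0.2234). *Dazl* was at 412 to 626 CPM (log2 change -0.62, interval -2.09 to 0.85) and *Boll* at 29.6 to 34.7 CPM (0.27, interval -1.06 to 1.59). Somatic markers moved with the lower *Ddx4* pools, and the somatic lists summed to 2800 CPM in E17.5 replicate 1 and 2000 CPM in E18.5 replicate 2, against 163 to 1160 CPM in the E14.5 to E16.5 pools. Taking only cells in the germ cell marker range, *Ddx4* was at 371 CPM in the first and 356 CPM in the second, and the 4 pools of E17.5 and E18.5 then gave 371 ± 15.3 CPM. Without the pools that stand apart the log2 changes were -0.66 for *Ddx4* (adjusted p = 0.4684), -0.43 for *Dazl* and 0.38 for *Boll*, with no call.

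Along the gonad, no gene was called between the distal and proximal parts of the gonad at E13.5 to E16.5. *Ddx4* was at 463 ± 74.4 CPM in distal and 443 ± 58.9 CPM in proximal germ cells (SD, n = 8 pools each), *Dazl* at 688 ± 119 and 665 ± 142 CPM, and *Boll* at 18.8 ± 11.1 and 16.4 ± 11.2 CPM. The log2 differences, distal minus proximal, were 0.11 (95% interval -0.09 to 0.31), 0.11 (-0.12 to 0.34) and 0.37 (-0.16 to 0.9), and 0.0% of 14128 genes were called by edgeR, with 170 at an unadjusted p under 0.05 and 0 called by DESeq2.

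After birth, the pools of PND0-PND2 and PND3-PND8 overlapped for all 3 genes, and *Ddx4* and *Boll* were called higher in the later window under the main scaling. In cells of the germ cell marker range, the PND0 to PND2 pools gave 374 to 416 CPM of *Ddx4* and those of PND3 to PND8 gave 353 to 446 CPM. *Dazl* was at 601 to 719 CPM and then at 633 to 760 CPM. *Boll* was at 33.3 to 56.7 CPM in the first of these windows and at 41.7 to 70.9 CPM in the second, with its 4 lowest pools of the second window at PND3 and PND4. From E17.5-E18.5 to PND0-PND2 no gene of the 3 passed, against 7.02% of all genes. The log2 changes were 0.25 for *Ddx4* (95% interval 0 to 0.49), 0.31 for *Dazl* (-0.45 to 1.08) and 0.76 for *Boll* (0.2 to 1.31, edgeR adjusted p = 0.09072). From PND0-PND2 to PND3-PND8, *Ddx4* (log2 change 0.42 ± 0.09 SE, adjusted p = 0.0007102) and *Boll* (0.69 ± 0.21, adjusted p = 0.00977) passed, beside 43.6% of all genes, and *Dazl* did not (0.44, adjusted p = 0.2232). These calls rested on the scaling. The median log2 change of all genes was -0.29 under TMM, and with library sizes alone *Ddx4* changed by 0.06 (adjusted p = 0.5303) and *Boll* by 0.35 (adjusted p = 0.1529), which is the scale on which the CPM values above are given. The *Ddx4* call was also lost without replicate 1 (0.38, adjusted p = 0.08497), and the *Boll* call without replicate 1 (0.69, adjusted p = 0.09815) or replicate 2 (0.61, adjusted p = 0.07498). *Dazl* passed once adult replicate 1 was left out of the fit (0.44, adjusted p = 0.008094). Without PND2 replicate 1 the calls of *Ddx4* (0.41, adjusted p = 0.001693) and *Boll* (0.77, adjusted p = 0.007217) stood, and from E17.5-E18.5 to PND0-PND2 again no gene of the 3 passed (*Boll* 0.67, adjusted p = 0.1909).

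The unsorted pools followed their somatic content. PND2 replicate 1, with 4660 CPM of somatic markers, gave the lowest postnatal *Ddx4* and *Boll* sums before PND30, 184 and 25.2 CPM, and its 16 cells of the germ cell range gave 379 and 56.7 CPM. Postnatal cells in the somatic range (germ markers at 0.2 or less) were not free of the transcripts. Over 15 pools of PND0 to PND14 they held 21.7 to 86.4 CPM of *Ddx4*, 55.3 to 194 CPM of *Dazl* and 1.24 to 10.6 CPM of *Boll*. In germ-range cells of the 24 pools of the same ages the levels were 345 to 509, 551 to 792 and 33.3 to 182 CPM, so the germ and somatic ranges did not overlap for any of the 3 genes. As in the fetal gonad, carried-over RNA and low expression were not tested as sources.

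At PND10 to PND14 *Boll* rose, and *Ddx4* and *Dazl* did not pass the test. From PND3-PND8 to PND10-PND14 the *Boll* log2 change was 0.96 ± 0.2 (SE, edgeR adjusted p = 0.0006757), where 21.1% of all genes passed. *Ddx4* gave 0.01 (95% interval -0.18 to 0.19) and *Dazl* 0.06 (-0.53 to 0.64). The *Boll* pools were uneven: 58.7 and 73.5 CPM at PND10, 65.9 and 182 CPM at PND12 and 89.1 and 174 CPM at PND14. Both high pools were replicate 2, and without the replicate 2 pools the *Boll* change was 0.26 (adjusted p = 0.663). PND12 replicate 2 was also low for *Dazl* (551 CPM, the other 5 pools 700 to 792 CPM), and PND14 replicate 2 high for *Ddx4* (509 CPM).

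Between PND10-PND14 and PND30-Adult the paths separated, with *Dazl* falling and the other two rising. *Dazl* fell from 728 ± 92.9 to 174 ± 230 CPM (SD, n = 6 pools each), with a log2 change of -1.98 ± 0.35 (SE, edgeR adjusted p = 1.618e-05). Its later pools gave 36.2 and 76 CPM at PND30, 104 and 118 CPM at PND35, and 639 and 71.3 CPM in the adult. Only adult replicate 1 reached into the earlier range, and without it the log2 change was -2.95 (adjusted p = 2.266e-15). *Boll* rose from 107 ± 55.8 to 189 ± 35.2 CPM (log2 change 0.99 ± 0.24, adjusted p = 0.0006455) and *Ddx4* went from 407 ± 65.8 to 456 ± 48 CPM (0.35 ± 0.11, adjusted p = 0.004367). All 3 genes passed here, as did 66.7% of all genes. The *Ddx4* rise was lost with library sizes alone (0.17, adjusted p = 0.08476) and without the replicate 1 pools (0.18, adjusted p = 0.4082), and the *Boll* rise without the replicate 1 pools (0.56, adjusted p = 0.1684). For both genes the highest later pool was adult replicate 1. It held 552 CPM of *Ddx4*, beside 420 to 448 CPM in the others, which lay inside the 345 to 509 CPM of PND10-PND14. Of *Boll* it held 230 CPM, beside 146 to 223 CPM in the others.

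Splitting the germ-range cells of PND10 to adult by stage markers that exclude the 3 genes placed the *Dazl* fall between the early meiotic and late spermatocyte ranges. The ranges are cuts of a score, with 856 of 3614 cells near a cut, and the spermatogonial range (749 cells), early meiotic range (789), late spermatocyte range (1161) and spermatid range (915) are named for their marker lists. *Dazl* was at 651 ± 84.6 CPM in the spermatogonial (SD, n = 7 pools), 765 ± 211 CPM in the early meiotic (n = 10), 50 ± 16.2 CPM in the late spermatocyte (n = 5) and 98.2 ± 43.9 CPM in the spermatid range (n = 5). The late spermatocyte pools gave 32.7 and 45.1 CPM at PND30, 49.5 and 76.6 CPM at PND35 and 46.2 CPM in adult replicate 2, and the lowest early meiotic pool gave 540 CPM. No early meiotic pool thus overlapped a late spermatocyte pool. The log2 change was -3.75 ± 0.27 (SE, edgeR adjusted p = 1.342e-10), and within pools, with the pool as a block, -3.36 ± 0.18. Every pool that holds both ranges shows the step without a change of animals. From the early meiotic to the late spermatocyte range *Dazl* went from 541 to 45.1 CPM in PND30 replicate 2 and from 834 to 49.5 CPM in PND35 replicate 1. It went from 608 to 76.6 CPM in PND35 replicate 2 and from 540 to 46.2 CPM in adult replicate 2. Adult replicate 1, high in the unsplit comparison, gave 626 CPM in the spermatogonial and 663 CPM in the early meiotic range, inside the ranges of the other pools (547 to 760 and 540 to 1080 CPM).

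*Boll* and *Ddx4* behaved otherwise at the same steps. *Boll* rose from 84.5 ± 32.9 CPM in the spermatogonial to 207 ± 80 CPM in the early meiotic range (log2 change 1.6 ± 0.27, adjusted p = 2.959e-05), and *Ddx4* from 378 ± 38.1 to 576 ± 139 CPM (0.91 ± 0.15, adjusted p = 2.295e-05). *Dazl* gave 0.5 ± 0.2 (adjusted p = 0.03666), so that all 3 genes passed, beside 51.8% of all genes. With the pool as a block all 3 passed as well (0.62, 0.66 and 1.14 for *Ddx4*, *Dazl* and *Boll*), beside 43.2% of all genes. The *Dazl* call was the least firm, being lost with DESeq2 (0.41), with library sizes alone (0.23), with equal weight for each cell (0.34) and without the replicate 1 (0.03) or replicate 2 pools (0.73). The *Boll* call was lost without the replicate 2 pools (1.44, adjusted p = 0.05098). In the late spermatocyte range *Boll* was at 214 ± 24.9 CPM, with no call against the early meiotic range (log2 change 0.21, 95% interval -0.36 to 0.78), and *Ddx4* at 450 ± 15.9 CPM (-0.19, -0.52 to 0.14). One of the 3 genes passed at this step, beside 58.5% of all genes. *Boll* too was lower in the late range in each of the 4 pools that hold both, 297 against 232 CPM in PND30 replicate 2, 222 against 215 and 274 against 233 CPM in the PND35 pools, and 232 against 172 CPM in adult replicate 2. With the pool as a block its log2 change was -0.12 (adjusted p = 0.6252), while without the cells near a cut *Boll* was called higher (0.97), so its direction at this step was not settled. Within the same 4 pools *Ddx4* was lower in the late one each time, 783 against 474 CPM in PND30 replicate 2, 719 against 435 and 692 against 442 CPM in the PND35 pools, and 629 against 442 CPM in adult replicate 2. With the pool as a block *Ddx4* therefore passed (-0.54 ± 0.1, adjusted p = 0.0002652, 38.1% of all genes called), but leaving out the cells near a cut turned its direction (0.39, adjusted p = 0.02773), as did leaving out adult replicate 1 without the block (0.04, adjusted p = 0.8598).

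From the late spermatocyte to the spermatid range *Boll* fell. *Dazl* passed as higher, at levels not above the highest of somatic-range cells at PND0-PND14, which are no matched floor. *Boll* was at 134 ± 29.5 CPM (log2 change -0.81 ± 0.32, adjusted p = 0.04296) with pools at 103 and 118 CPM at PND30, 157 and 173 CPM at PND35 and 120 CPM in adult replicate 2. Its 4 PND30 and PND35 spermatid pools were each below the late spermatocyte pool of the same animals, as was the adult one (172 CPM). The *Boll* call was lost with DESeq2 (-0.46), with library sizes alone (-0.67) and without adult replicate 1 (-0.74, adjusted p = 0.05739), and with the pool as a block it stood (-0.8, adjusted p = 0.0002603). *Dazl* was at 98.2 CPM (0.81 ± 0.25, adjusted p = 0.01104), higher than in the late spermatocyte sum of the same pool in 5 of 5 pools, the smallest step being 32.7 to 37.4 CPM in PND30 replicate 1, and its call was lost without replicate 1 (0.78, adjusted p = 0.06688) or replicate 2 (0.9, adjusted p = 0.1875). *Ddx4* was at 405 ± 23.5 CPM (-0.27, 95% interval -0.65 to 0.11), and passed only with the pool as a block (-0.27 ± 0.09, adjusted p = 0.01673, 58.3% of all genes called). Thus 2 of the 3 genes passed, as did 44.5% of all genes. The late spermatocyte mean of *Dazl* lay below and the spermatid mean within the 55.3 to 194 CPM of somatic-range pools at PND0-PND14, beside 97.7 CPM in the somatic-range cells of PND30-Adult (36 cells of 1 pool, adult replicate 1). Germ-range cells held 551 to 792 CPM at PND0-PND14 and 639 CPM in adult replicate 1, more than in the pools with spermatids. The PND35 spermatid pools, at 133 and 146 CPM, lay above the adult somatic-range value. Whether the spermatid level was background was not tested. Single cells differed less than the sums: the median *Dazl* level was 23.7 CPM in the late spermatocyte range (quartiles 9.35 and 60.5 CPM) and 30.3 CPM in the spermatid range (11.8 and 64.3 CPM).

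**Figure D3:**
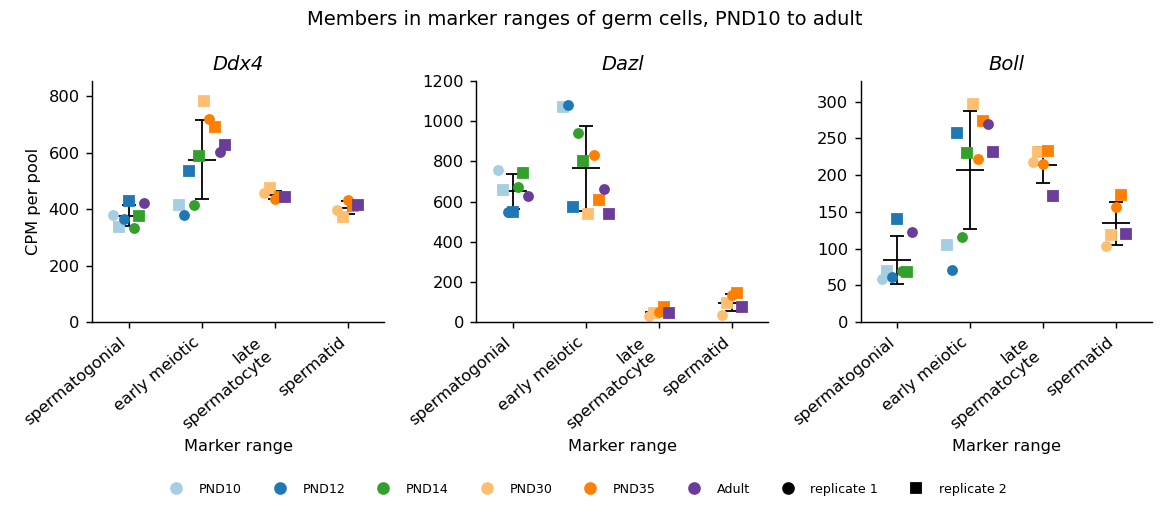
CPM of *Ddx4*, *Dazl* and *Boll* in sums of germ-range cells of PND10 to adult, split into 4 marker ranges; points are pools (colour for age, shape for replicate) and bars give mean and SD. *Dazl* drops from 540 CPM or more to 76.6 CPM or less between the early meiotic and late spermatocyte ranges. At this step *Boll* and *Ddx4* were not called in the main unpaired fit, though each was called under some alternative.

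The PND30 sort by DNA content, which uses no transcript, gave *Boll* levels in the order 1N, 2N, 4N. In replicate 1 its level was 92.9 CPM in 1N, 124 CPM in 2N and 199 CPM in 4N cells, and in replicate 2 it was 75, 190 and 217 CPM. Both replicates had the lowest level in 1N and the highest in 4N cells. The log2 difference, 1N minus 4N, was -1.13 ± 0.29 (SE, n = 2 against 2, edgeR adjusted p = 0.01672), and *Boll* was the single gene of the 3 to pass, beside 29.0% of 20269 genes. *Ddx4* was at 426 and 344 CPM in 1N and 427 and 467 CPM in 4N cells (-0.03, 95% interval -0.51 to 0.44), and *Dazl* at 36.8 and 38.6 against 39.9 and 36.4 CPM (0.18, -0.67 to 1.03). Between 2N and 4N cells 0.0% of genes were called (3588 at an unadjusted p under 0.05, 932 called by DESeq2). The 1N cells were mostly in the spermatid range (268 cells of 283 staged), the 4N cells in the late spermatocyte range (237 of 285), and the 2N cells were mixed, with 189 in the spermatid and 76 in the late spermatocyte range.

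**Figure D4:**
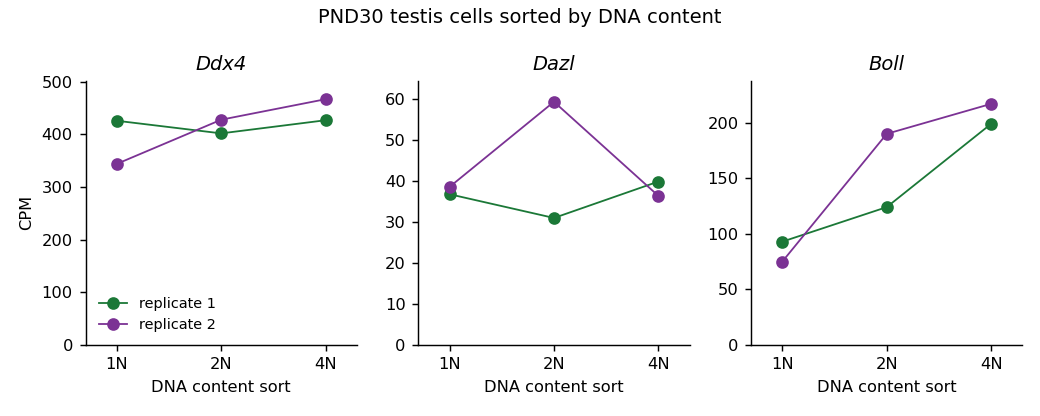
CPM of the 3 genes in PND30 cells sorted as 1N, 2N or 4N by DNA content, with lines joining the sorts of 1 replicate. *Boll* runs from 92.9 to 199 CPM and from 75 to 217 CPM between 1N and 4N, while *Ddx4* and *Dazl* show no shared order.

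Shares of cells with at least 1 UMI, after thinning every cell to 50000 UMIs and leaving out shallower cells, are given beside those of Negative cells. *Ddx4* was found in 25.8% of positive cells at E8.5 (exact 95% binomial interval 19.7% to 32.7%, n = 186), 38.9% at E9.5, 62.5% at E10.5 and 97.2% at E11.5 (93.6% to 99.1%, n = 178). *Dazl* was found in 6.99%, 3.24%, 32.1% and 97.2% of the same cells. The E10.5 pools ranged from 44.3% to 76.5% for *Ddx4* and from 15.9% to 57.4% for *Dazl*, and before thinning the E10.5 shares were 86.8% and 58.4%, so no order of the genes is read from them. *Boll* was found in 8.99% of positive cells at E11.5, 18.7% at E12.5, 15.8% at E13.5, 23.7% at E14.5, 33.1% at E15.5 and 57.8% at E16.5 (50.2% to 65.1%, n = 180). From E11.5 to E18.5 it was in fewer positive cells than the other two at each day. Of the positive cells with a *Boll* UMI, 6 of 26 also held *Dazl* at E8.5 to E10.5, 69 of 69 at E11.5 to E13.5, 208 of 208 at E14.5 to E16.5 and 135 of 136 at E17.5 to E18.5. Over all positive cells of these windows *Dazl* was found in 17.1%, 99%, 100% and 98.2%. From E11.5 on nearly every positive cell held *Dazl*, so these counts show nothing particular to cells with *Boll*. In Negative cells the thinned shares were 34% for *Ddx4*, 50% for *Dazl* and 0% for *Boll* at E11.5 (n = 50 cells, which allows a *Boll* share of up to 7.11%), and 32.2%, 48.9% and 4.44% at E16.5, with median depths of 186167 and 153936 UMIs against 367176 and 248935 in positive cells. On other days the Negative shares reached 84.6% for *Ddx4* (E17.5, n = 39 cells) and 92.7% for *Dazl* (E12.5, n = 41 cells), so that the E10.5 shares of both genes lay below those of Negative cells on some days. The *Dazl* and *Ddx4* shares of positive cells before E11.5 have no Negative gate beside them, and the shares of E8.5 were no higher than those of FACSrandom cells at E7.5 (33.6% and 17%). Before thinning, the *Boll* shares were 35.8% at E12.5 and 77.8% at E16.5.

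After birth the share of germ-range cells with a *Boll* UMI, counted over the cells of all pools, was higher in each later window. The share with a *Dazl* UMI, counted in the same way, was lower at PND30-Adult. In germ-range cells *Boll* was found in 65.7% at PND0-PND2 (62.3% to 69.1%, n = 782 cells), 78.4% at PND3-PND8, 86.1% at PND10-PND14 and 97.3% at PND30-Adult (96.6% to 97.9%, n = 2365 cells). The intervals are over cells and leave out the spread between pools. Single pools gave 51.5% to 81.2% at PND0-PND2, 72.2% to 87.3% at PND3-PND8 and 76.8% to 93.4% at PND10-PND14. By pool, neighbouring windows up to PND14 thus overlapped. The PND30-Adult pools, at 94.3% to 100%, lay above all of these. *Dazl* was found in 100% of germ-range cells in the first 3 of these windows and in 71.7% at PND30-Adult, or 94.2% before thinning, so the thinned share does not tell which cells lacked *Dazl*. The thinned *Dazl* share of single PND30-Adult pools was 59.1% to 100%. At that age 640 thinned cells held *Boll* without *Dazl* and 34 held *Dazl* without *Boll*, whereas in PND10-PND14 those counts were 0 and 153. Somatic-range cells held *Boll* in 8.72% at PND0-PND2, 12.7% at PND3-PND8 and 17.6% at PND10-PND14, and *Dazl* in 93.3%, 97% and 97.8%. Up to PND14 the *Dazl* share thus barely differed between germ-range and somatic-range cells, where the CPM ranges did not overlap. *Ddx4* stayed in at least 99.7% of cells in each of the 4 stage ranges.

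**Figure D5:**
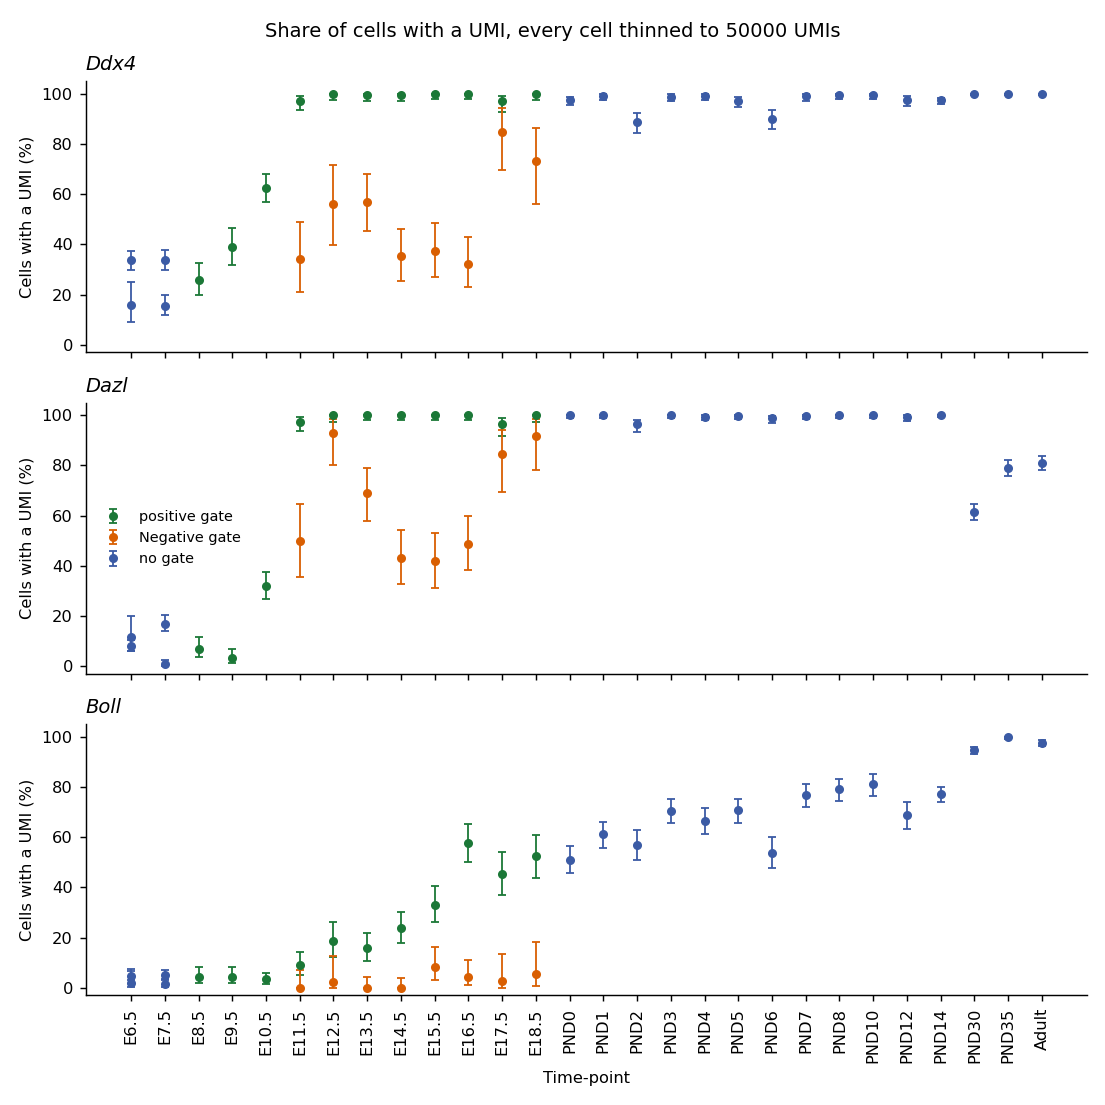
Share of cells with at least 1 UMI of each gene by time-point and gate, every cell thinned to 50000 UMIs; bars are exact 95% binomial intervals over cells and cover counting error only. *Dazl* goes from 32.1% at E10.5 to 97.2% at E11.5 in positive cells, and *Boll* from 8.99% at E11.5 to 99.9% at PND35.

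The genes most like each of the 3, by Pearson correlation of log2(CPM + 1) over the 87 sums and among 11488 genes with a mean of at least 10 CPM, differed between them. These are descriptions over sums that share animals, gates and germ cell content. For *Ddx4* they were *Rpl10l* (r = 0.974), *Rpl39l* (0.961), *Hormad1* (0.957), *Prr19* (0.956) and *Smc1b* (0.952), of which *Rpl39l* and *Hormad1* are in the germ cell marker list used here. For *Dazl* they were *Asz1* (0.948), *Slc25a31* (0.937), *Mov10l1* (0.934), *Uba1y* (0.934) and *Gpat2* (0.921), where *Asz1* and *Mov10l1*, both of the piRNA pathway, are in that list too. For *Boll* they were *1700018B24Rik* (0.955), *Wfdc15a* (0.954), *Trim52* (0.953), *4933416C03Rik* (0.949) and *Arhgef33* (0.947). Among the 3 genes themselves, *Ddx4* had r = 0.871 with *Dazl* and 0.872 with *Boll*, and *Dazl* and *Boll* had 0.648.

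A list of 24 genes, with DAZ-associated proteins as partners, reported targets such as *Sycp3* and *Tex19.1*, and germ granule and small RNA proteins that work with DDX4, was followed in the same fits; 7 of its genes (*Mael*, *Tdrd1*, *Tdrd9*, *Piwil2*, *Dnd1*, *Nanos3* and *Sycp3*) are also in the germ cell marker list. Of 21 measured genes, 16 were higher and 3 lower in positive than in Negative cells, beside 33.1% and 29.9% of all genes tested, with a median log2 difference of 2.66 beside 0.07 for all genes. *Piwil1* (5.38 ± 0.57 SE, edgeR adjusted p = 4.904e-09), a PIWI protein of meiotic cells, and *Tex14* (4.37 ± 0.35), needed for intercellular bridges, had the largest rises, and *Dazap2* (-0.76 ± 0.11) and *Pum2* (-0.7 ± 0.15), which are expressed widely, the largest falls. In the window in which *Ddx4* and *Dazl* rose, E11.5-E13.5, 8 of 24 rose and 1 fell, beside 5.32% and 6.33% of all genes, with a median of 0.32 beside 0. *Piwil4*, which guides DNA methylation of transposons in fetal male germ cells, rose from 0.267 ± 0.337 to 6.63 ± 5.98 CPM (log2 change 4.61 ± 0.74). *Nanos2* passed (6.12 ± 1.69) on levels of 0.124 ± 0.316 and 9.22 ± 21.1 CPM, with an SD above the mean in both windows. *Crisp2* was called lower (-5.85 ± 1.66) from 0.949 ± 1.83 CPM. In the next window 9 of 24 rose and 5 fell, beside 28.3% and 14.4% of all genes (median 0.71 beside 0.49), with *Tdrd9*, a helicase of the piRNA pathway, from 1.14 ± 0.856 to 171 ± 127 CPM (6.85 ± 0.89) and *Crisp2* (7.22 ± 1.75) at the top, and *Elavl2* (-1.19 ± 0.45) and *Dicer1* (-0.86 ± 0.28) at the bottom.

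The later steps called other genes of the list. In the comparisons from PND0-PND2 on, cells were kept by the germ cell marker list, which shares 7 genes with this list, *Nanos3* and *Tdrd9* among them. Changes of the shared genes, and their part in the counts, are thus in part set by the choice of cells. At E17.5-E18.5, where none of the 3 genes passed, 0 of 24 rose and 5 fell, beside 1.55% and 11.9% of all genes (median -0.47 beside 0.15), led by *Nanos3* from 175 ± 125 to 8.68 ± 2.58 CPM (-4.81 ± 0.94) and *Tex14* (-1.79 ± 0.57). At PND0-PND2 2 of 24 rose, *Nanos3* (2.16 ± 0.6) by the most, and 0 fell, beside 6.27% and 0.745% of all genes. At PND3-PND8 6 of 24 rose, led by *Nanos3* (1.71 ± 0.46) and *Dazap1* (1.2 ± 0.21), and 1, *Tdrd9*, fell (-0.77 ± 0.23), beside 15.9% and 27.7%. At PND10-PND14, with the *Boll* rise, 11 of 24 rose and 0 fell, beside 14.2% and 6.87% of all genes (median 0.29 beside 0.04), with *Crisp2* (4.11 ± 1.01), coding a protein of the sperm head and tail, and *Tdrd6* (3.16 ± 0.71), of the chromatoid body, at the top. At PND30-Adult 10 rose, led by *Tdrd6* (4.06 ± 0.94) and *Dzip1* (3.36 ± 0.47), and 10 fell, led by *Nanos2* (-4.01 ± 1) and *Piwil4* (-3.97 ± 0.8), beside 34.3% and 32.4% of all genes, at a median of -0.12 beside 0.06.

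Over the stage ranges genes of the list moved in both directions. Of the list, *Nanos3*, *Sycp3* and *Piwil1* are also among the markers that cut the spermatogonial, early meiotic and late spermatocyte ranges. Changes of these genes between ranges, and their part in the counts, are thus in part set by the cut. From the spermatogonial to the early meiotic range 15 of 24 rose and 5 fell, beside 27.8% and 24.0% of all genes (median 0.85 beside 0.12), with *Crisp2* (3.06 ± 0.88) and *Piwil1* (2.67 ± 0.74) rising most and *Nanos2* (-4.08 ± 0.66) and *Piwil4* (-4.03 ± 0.76) falling most. At the step at which *Dazl* fell, 4 rose, led by *Tdrd6* (2.69 ± 0.88) and *Dzip1* (2.24 ± 0.5), and 10 of 24 fell, beside 28.02% and 30.5% of all genes (median -0.31 beside 0.06). The largest falls there were those of *Elavl2*, an RNA-binding protein, from 32.7 ± 33.3 to 0.264 ± 0.21 CPM (-6.71 ± 0.96), and *Dicer1*, the endonuclease of small RNA maturation, from 55.8 ± 36.5 to 1.69 ± 0.993 CPM (-4.85 ± 0.57). In the spermatid range *Elavl2* (2.86 ± 0.84) and *Dicer1* (1.38 ± 0.52) were the 2 that rose, to 2.02 and 4.92 CPM, with *Dazap1* (-1.07 ± 0.29) and *Sycp3* (-0.97 ± 0.36) leading 7 that fell, beside 28.01% and 16.49% of all genes. Between 1N and 4N cells 0 of 22 measured genes rose and 6 fell, beside 16.8% and 12.2% of all genes, led by *Piwil1* (-2.8 ± 0.42) and *Piwil2* (-2.24 ± 0.44), and none was called between 2N and 4N cells or along the gonad.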

How the data were processed

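Cells were profiled by STRT-seq, a 3′-end method with UMIs. Per the study's methods and the labels, the authors aligned reads to mm10 with STAR, assigned them with featureCounts and collapsed them with UMI-tools; whether strand was used is not given in the sources used here. The deposited table holds raw UMI counts of 31053 genes in 13032 cells, and its column sums equalled the deposited totals in all cells. The labels of the 147 libraries name no group, so time-point, replicate, gate, position and DNA content came from the deposited table of cells; no column of per-sample values was left unused (0).

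Cells kept had over 2000 genes and 10000 to 1000000 UMIs. UMI counts were summed per pool and tested with edgeR 4.0.16 in R 4.3.3 (TMM, filterByExpr, quasi-likelihood test, Benjamini-Hochberg at 0.05), each comparison fitted over all genes; SE is the log2 change divided by the root of F. Time windows treat pools of 2 to 6 neighbouring ages as replicates. Windows within a fit share one estimate of the spread and each is used in 2 comparisons. Cells after birth were kept by the share of germ markers among germ and somatic markers (0.8 or more); stage ranges took the highest mean scaled log2(CPM + 1) over a marker list, and cells whose 2 best scores lay within 0.25 counted as near a cut. A replicate is a biological replicate as the study names it. The study lists several embryos or gonads for each replicate before birth and 1 for each replicate after birth. Gates, gonad parts, stage ranges and DNA content sorts of 1 pool come from the same animals, so pool numbers pair them there; time windows share no animals and were not paired. Cells were thinned to 50000 UMIs by drawing without replacement. No doublet caller was run; per the study's methods single cells were transferred by mouth pipette. Likeness used a pseudocount of 1.

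Tested on simulated counts, the fit of E11.5-E13.5 against E8.5-E10.5 (21617 genes) recovered 37% of 4-fold and 14% of 2-fold changes, with 1.92% false calls, and that of 1N against 4N (20269 genes) 20% and 0%. DESeq2 1.42.0, other scalings, filters, cell weights and left-out replicates were tried as alternatives. The 3 genes, marker lists, windows and partner list were chosen with earlier results of these data known. Named genes are the 3 genes, per comparison the 2 called list genes that rose most and the 2 that fell most, and the 5 genes most alike by correlation. A gene of the partner list that the rule names at PND0-PND2 is counted but not reported here. Promoters were taken from RefSeq (GRCm38.p6); all 3 genes matched, and protein sequences were not used here.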

Additional observations from a re-analysis of the deposited data

Results flagged for a closer look

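Among 42 groups of 4 to 10 pools, Dixon's test set 4 pools apart from the others of their group, where chance gives about 5% of groups. E10.5 replicate 3 stood apart for *Dazl* in the E8.5-E10.5 positive cells, at 50.4 CPM beside 1.67 to 14.8 CPM in the other 7 pools. E8.5 replicate 2 stood apart for *Boll* in the same window, at 5.36 CPM beside 0 to 2.14 CPM. Adult replicate 1 stood apart in the PND30-Adult germ-range cells both for *Dazl*, at 639 CPM beside 36.2 to 118 CPM, and for *Ddx4*, at 552 CPM beside 420 to 448 CPM; 205 of its 278 staged cells were in the early meiotic and 67 in the spermatogonial range, and within those ranges its levels lay inside those of the other pools.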

How the results depend on the processing

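For 42 results on the 3 genes, 329 alternatives other than leaving out replicates were run: 297 kept the direction and side of the threshold, 12 lost the call, 8 gained one and 12 changed sign; of 126 that left out pools the numbers were 101, 19, 1 and 4, with 1 untested value that moved (*Dazl*, 2N against 4N, -0.4). The cause of each change was not tested. With DESeq2, *Boll* at E11.5-E13.5 gained a call (log2 change 1.62), *Dazl* in the early meiotic (0.41) and *Boll* in the spermatid range (-0.46) lost one, and the sign turned for *Dazl* at E14.5-E16.5 (0.03) and *Ddx4* at PND10-PND14 (-0.02), in the late spermatocyte (0.02) and in the spermatid range (0.08); DESeq2 gave no adjusted p for *Dazl* at PND30-Adult, so that value is left out. With library sizes alone, calls were lost for *Ddx4* (0.06) and *Boll* (0.35) at PND3-PND8, *Ddx4* at PND30-Adult (0.17), *Dazl* in the early meiotic (0.23) and *Boll* in the spermatid range (-0.67), 1 was gained for *Ddx4* in the late spermatocyte range (-0.35), and the sign turned for *Dazl* at E14.5-E16.5 (0.15), *Ddx4* at PND10-PND14 (-0.01) and *Dazl* in 1N cells (-0.02). With no filter on low counts, *Boll* at E14.5-E16.5 (1.5), *Dazl* in the early meiotic (0.44) and *Boll* in the spermatid range (-0.84) lost their calls. With cells weighted equally, *Boll* at E11.5-E13.5 gained a call (1.79), and *Dazl* in the early meiotic (0.34) and *Boll* in the spermatid range (-0.79) lost theirs. *Boll* at E11.5-E13.5 was also called in germ-range cells alone (1.36) and without the pools that stand apart (1.32); leaving out pools that stand apart, PND2 replicate 1 or adult replicate 1 was chosen after seeing the data. With no filter on cells *Ddx4* at PND10-PND14 was -0.03, and with a marker share of 0.5 it was -0.03 and *Dazl* -0.01. Without cells near a cut, *Ddx4* (0.39) and *Boll* (0.97) in the late spermatocyte range were called higher.

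With the replicate block (pool as block), *Ddx4* was called lower in the late spermatocyte (-0.54) and spermatid ranges (-0.27) and *Boll* in the late spermatocyte range changed sign (-0.12); the block changed no other call of the 3 genes, and gave 4.06, 4.06 and 5.04 for *Ddx4*, *Dazl* and *Boll* between the gates. The time windows share no animals, so no block was fitted there.

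Leaving out pools gave log2 changes of 3.03 to 3.6 for *Ddx4* and 5.19 to 6.56 for *Dazl* at E11.5-E13.5, 1.34 to 1.75 for *Boll* at E14.5-E16.5, 0.38 to 0.42, 0.41 to 0.44 and 0.61 to 0.77 for *Ddx4*, *Dazl* and *Boll* at PND3-PND8, -0.12 to 0.13, 0.0 to 0.13 and 0.26 to 1.49 at PND10-PND14, and 0.18 to 0.77 for *Ddx4* and 0.56 to 1.84 for *Boll* at PND30-Adult. In the stage ranges they gave 0.03 to 0.73 for *Dazl* and 1.33 to 1.73 for *Boll* (early meiotic), -0.32 to 0.04 for *Ddx4* and -0.02 to 0.52 for *Boll* (late spermatocyte), and 0.78 to 0.9 for *Dazl* and -0.83 to -0.74 for *Boll* (spermatid); *Dazl* between 2N and 4N cells was -0.4 to 0.58, where leaving out a replicate left no residual degrees of freedom and so no test.

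Counts of called genes moved by over 1.5 times, from 2517 to 3901 (DESeq2) and 1632 (without the pools apart) at E11.5-E13.5; from 2911 to 1093 (library sizes) and 1584 (without the pools apart) at E17.5-E18.5; from 1770 to 1159 (library sizes), 1160 (all cells) and 2897 (without adult replicate 1) at PND0-PND2; from 12998 to 8462 (block) in the late spermatocyte range; and from 0 to 932 (DESeq2), 1624 (no filter) and 2491 (block) for 2N against 4N. Without replicate 1 or 2 they were 9 and 3 at E11.5-E13.5, 2039 and 90 (from 9231) at E14.5-E16.5, 114 and 0 at E17.5-E18.5, 0 and 144 at PND0-PND2, 5553 and 4110 (from 10985) at PND3-PND8, 3693 and 72 (from 5321) at PND10-PND14, 13613 and 11051 (from 16813) at PND30-Adult, 6356 and 2333 (from 11511) in the early meiotic, 8329 and 6149 (from 12998) in the late spermatocyte and 6859 and 810 (from 9884) in the spermatid range, and 6277 and 6442 (from 9600) between the gates. Scaling also moved the split into higher and lower calls: 335 and 2576 at E17.5-E18.5 became 885 and 1375 with DESeq2, 3998 and 6987 at PND3-PND8 became 1631 and 9215 with library sizes, 8646 and 8167 at PND30-Adult became 11167 and 6190 with DESeq2, and 6221 and 3663 in the spermatid range became 7680 and 2290 with DESeq2, with median log2 changes of all genes of 0.45, -0.65, 0.63 and 0.44. Sums of the Negative gate held as few as 2457656 UMIs, which limits *Boll* there to levels above about 1.22 CPM.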
